A study of Mus musculus with 4 samples.

Results

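The genes described here are 10 that make, carry and break down the monoamine transmitters dopamine, noradrenaline and serotonin: Th, Tph2, Ddc, Dbh, Slc18a2, Slc6a2, Slc6a3, Slc6a4, Maoa and Maob. They were chosen by gene symbol, and each had 1 probe set among the 22206 gene probe sets of a mouse array. The tissue was brain cortex from male mice of SAMP8, a senescence-prone inbred strain. All the mice were caged singly from 7 months of age for 4 months. From 11 months of age the treated mice were given TCQA (the labels use this abbreviation for the compound) orally, 5 mg/kg each day over 1 month, and the control group received MilliQ water over the same time. Each group had 2 arrays, named here by group and replicate number. The values are log2 signals, so a difference of 1 is a 2-fold change, and the level of a probe set can be compared between arrays but not with that of another probe set. Whether the 2 arrays of a group stand for 2 animals is not stated in the labels, so p-values reflect the spread among these samples alone, and that spread may be technical. In whole tissue, fewer cells of a type and less RNA per cell cannot be told apart.

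Dopamine and noradrenaline are made from tyrosine and serotonin from tryptophan. A hydroxylase takes the first and limiting step, Ddc removes the carboxyl group, and Dbh turns dopamine into noradrenaline. Slc18a2 loads each amine into vesicles, the Slc6a transporters take it back up after release, and the monoamine oxidases Maoa and Maob on the outer mitochondrial membrane degrade it. The neurons that release these amines in the cortex have their cell bodies in the midbrain and brainstem, so most of their mRNA lies outside the dissected tissue. Some cortical and olfactory interneurons also transcribe Th, and Maob is a gene mainly of astrocytes and serotonin neurons.

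Slc18a2 and Maob stood out from the 10 genes. Slc18a2 was 2.19-fold higher with TCQA and Maob 1.45-fold higher, with both TCQA arrays above both control arrays for each. Th and Ddc were higher on 1 TCQA array each, Th on TCQA replicate 1 and Ddc on TCQA replicate 2. Dbh and the 3 reuptake transporters were below the median signal of the negative controls on all 4 arrays. So were 10642 of the 22206 gene probe sets. After Benjamini-Hochberg adjustment of limma's p-values over all gene probe sets, none of the 10 passed. That fit called 0% of the 22206 at an adjusted p under 0.05 (0 probe sets), while 1386 had an unadjusted p under 0.05.

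Of the 10 genes, 2 had an unadjusted p under 0.05 by limma and both were higher, against 3.38% of all gene probe sets called in that direction and 6.24% in either. None of the 10 was lower at that threshold (0 by limma), against 2.86% of all gene probe sets. The depositors' criterion asks for both an unadjusted p below 0.05 and a change of over 2-fold. It was met by 1 of the 10, Slc18a2, and by 0.374% of all gene probe sets, 0.203% in the higher direction. The groups did not overlap for 5 of the 10, each with TCQA above control, compared with 18.9% of all gene probe sets in that direction and 36.6% in either. The mean was higher with TCQA for 9 of the 10 and for 51.1% of all gene probe sets. The median log2 difference was 0.27 over the 10 genes and 0.01 over all gene probe sets. The counts describe these 10 genes, and 7 of the 10 were below the negative control median on at least 1 array.

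**Figure D1:**
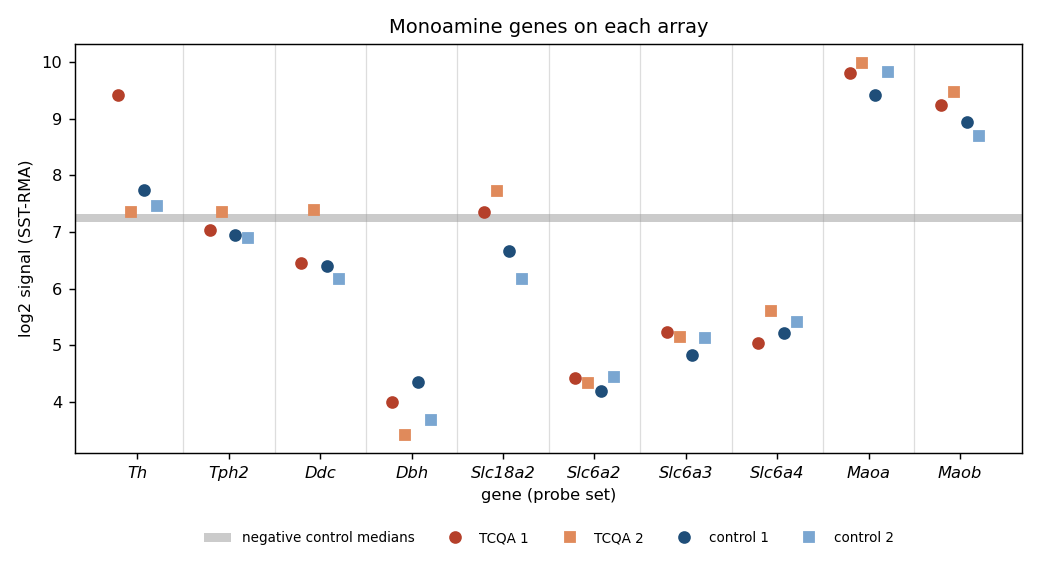
Log2 signal of each of the 10 monoamine genes on the 4 arrays (red and orange, TCQA replicates 1 and 2; dark and light blue, control replicates 1 and 2). The grey band spans the 4 negative control medians, 7.17 to 7.32; Th, Maoa and Maob lie above their array's median on all 4 arrays, and Dbh, Slc6a2, Slc6a3 and Slc6a4 lie below it on all 4.

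The 4 arrays correlated at 0.991 to 0.993 across gene probe sets. Control replicate 1 stood apart in Ttr, the transthyretin gene of the choroid plexus, with a log2 signal of 7.49 there and of 12.23 to 16.42 on the other arrays. Of 12 measured cortical neuron markers, 11 were above the negative control median on all 4 arrays and Emx1 was below it on all 4. The list's mean log2 signal was 12.55 and 12.16 with TCQA and 12.46 and 12.36 in control. In mean, 8 of the 12 were lower with TCQA and 4 higher. The lowest array was TCQA replicate 2 for 7 of the 12, and for 5522 of the 22206 gene probe sets. Cux2 alone had a limma unadjusted p under 0.05 (0.0469, lower), against 2.86% of all gene probe sets called lower. Of the 22206 gene probe sets, 10642 were under the negative control median on all 4 arrays and 10342 were above it on all 4. The signal of a negative control is itself spread, with upper quartiles of 8.55 to 8.75, so the median marks dim probe sets and is not a floor.

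The promoters of Slc18a2 and Th are shown because these genes had the largest mean differences of the 10 and both promoters held the cAMP response element, the site bound by CREB. Promoter sequences from RefSeq (GRCm38.p6) matched 8 of the 10 genes. The element was searched as TGACGTCA, a palindrome that reads the same on both strands, in windows of 300 bases from 250 before the start site to 50 after it. It was found in 2 of the 8 genes and in 1.79% of the 32851 promoter windows. The sequences run 5′ to 3′ on the strand of the gene and end 10 bases past the start, with the element in capitals. They lie at chr19:59260628-59260887, plus strand, for Slc18a2 and at chr7:142899986-142900245, minus strand, for Th.
Slc18a2: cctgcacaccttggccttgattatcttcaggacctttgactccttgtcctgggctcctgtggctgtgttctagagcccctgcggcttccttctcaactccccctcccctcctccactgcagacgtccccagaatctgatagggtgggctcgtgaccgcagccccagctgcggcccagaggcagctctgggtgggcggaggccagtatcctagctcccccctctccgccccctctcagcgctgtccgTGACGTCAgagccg
Th: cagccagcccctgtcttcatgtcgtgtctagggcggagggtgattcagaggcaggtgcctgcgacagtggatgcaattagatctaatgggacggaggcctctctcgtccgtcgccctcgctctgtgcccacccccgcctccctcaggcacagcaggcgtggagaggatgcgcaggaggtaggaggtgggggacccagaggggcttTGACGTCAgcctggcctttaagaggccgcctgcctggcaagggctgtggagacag
The element began 4 bases before the start of Slc18a2 and 45 bases before that of Th. A GC box, searched as GGGCGG on both strands, was in the windows of 5 of the 8 genes (Th, Slc18a2, Slc6a3, Slc6a4 and Maoa) and in 35.7% of all windows. A TATA box, searched as TATAAA on both strands, was in those of Tph2 and Ddc and in 13.6% of all. The element bound by single NR4A receptors, searched as AAAGGTCA on both strands, was in 1 of the 8, Ddc, and in 1.51% of all. In Ddc, in 1 of its 2 windows, the NR4A and TATA matches overlapped. A match describes the sequence only. Th was high on TCQA replicate 1 and Slc18a2 on both TCQA arrays, and any part of the element in these values was not tested.

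Th encodes tyrosine hydroxylase, the limiting enzyme of dopamine and noradrenaline synthesis. Its log2 signal was 9.42 and 7.36 on TCQA replicates 1 and 2, and 7.74 and 7.46 on control replicates 1 and 2. TCQA replicate 1 was high and the other 3 arrays lay within 0.38 of each other, with TCQA replicate 2 the lowest of the 4, so the groups overlapped. The high array was 3.21-fold over the next. The mean was 8.39 ± 1.46 with TCQA against 7.6 ± 0.19 in control (SD, n = 2 each). They differed by 0.79 (95% confidence interval -0.70 to 2.28, limma unadjusted p = 0.244, adjusted p = 0.857). Without TCQA replicate 1 the difference was -0.24, and without TCQA replicate 2 it was 1.82. Whenever 1 array is left out here, a group is a single array, which is assumed to vary like the pair that remains and the genes at large, so no p from such a fit measures that group's own spread.

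Markers of the olfactory bulb, where many interneurons transcribe Th, were also high on TCQA replicate 1. The mean log2 signal of the 6 measured markers was 8.13 there, 6.82 on TCQA replicate 2, and 6.92 and 6.72 on control replicates 1 and 2. For 5 of the 6, all but Tbx21, the highest value was that of TCQA replicate 1. Eomes, a transcription factor of the bulb's mitral and tufted cells, was at 7.87 on that array and between 4.62 and 5.36 on the others. Cdhr1, a cadherin of the same cells, was at 8.37 there and between 5.66 and 6.82 on the others. Calb2 and Dlx6, which cortical interneurons also transcribe, were instead high on both TCQA arrays. Calb2, a calcium-binding protein, was at 11.26 and 10.87 with TCQA, against 9.42 and 9.71 in control (limma unadjusted p = 0.000388). Dlx6, a transcription factor of inhibitory neurons, was at 8.44 and 8.12, against 7.24 and 7.60 (limma unadjusted p = 0.00696). Calb2 and Dlx6 therefore did not follow the array pattern of Th, although the mean of the list did. Of these 6 markers, Calb2 alone was above the negative control median on all 4 arrays. The part of the olfactory signal in the Th values was not tested.

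Tph2 encodes the hydroxylase that limits serotonin synthesis in neurons. Its log2 signals were 7.03 and 7.34 with TCQA and 6.95 and 6.89 in control. Both TCQA arrays were above both control arrays, but only TCQA replicate 2 exceeded its negative control median. The difference was 0.27 (95% confidence interval -0.20 to 0.73, limma unadjusted p = 0.215, adjusted p = 0.850).

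Ddc, the decarboxylase shared by the catecholamine and serotonin routes, had log2 signals of 6.46 and 7.38 with TCQA, against 6.39 and 6.17 in control. TCQA replicate 2 was 0.92 above the next array, and the other 3 lay within 0.29 of each other. The groups did not overlap, although TCQA replicate 1 was close to the control arrays. The difference was 0.64 (95% confidence interval -0.13 to 1.41, limma unadjusted p = 0.0887, adjusted p = 0.809). It was 1.10 without TCQA replicate 1 and 0.18 without TCQA replicate 2.

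The array that was high for Ddc and Tph2 was also high for hypothalamic markers. The mean log2 signal of the 9 measured markers was 6.88 on TCQA replicate 2, 5.58 on TCQA replicate 1, and 5.39 and 5.37 on control replicates 1 and 2. All 9 had their highest value on TCQA replicate 2. Most were dim: 7 of the 9 were under the negative control median on all 4 arrays, and 0 were above it on all 4. Of the 22206 gene probe sets, 10642 were under it on all 4. Pmch, the precursor of melanin-concentrating hormone, was at 10.32 there and between 5.37 and 5.96 on the others. Avp, the vasopressin gene, was at 6.91 there and between 5.13 and 5.36 on the others, below the negative control median on all 4. Hdc, which makes histamine in a hypothalamic nucleus and in mast cells, was at 6.27 there and between 5.55 and 5.79 on the others, below the negative control median on all 4. Trh, the precursor of thyrotropin-releasing hormone, was high on both TCQA arrays, at 7.54 and 7.89, against 5.49 and 5.66 in control. Its limma unadjusted p of 3.14e-05 was the smallest of the 22206 (adjusted p = 0.697), so this marker did not follow the array pattern of Ddc. A list of thalamus markers also had its highest mean on TCQA replicate 2, at 10.60, against 10.06 on TCQA replicate 1 and 9.15 and 9.85 in control. The part of the hypothalamic or thalamic signal in the Ddc and Tph2 values was not tested.

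Dbh, the last enzyme of noradrenaline synthesis, was the only gene of the 10 with a lower mean with TCQA. Its log2 signals were 4.00 and 3.42 with TCQA and 4.36 and 3.69 in control. The groups overlapped and all 4 values lay under the negative control median. The difference was -0.31 (95% confidence interval -1.05 to 0.42, limma unadjusted p = 0.340, adjusted p = 0.880) and was 0.024 without control replicate 1.

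**Figure D2:**
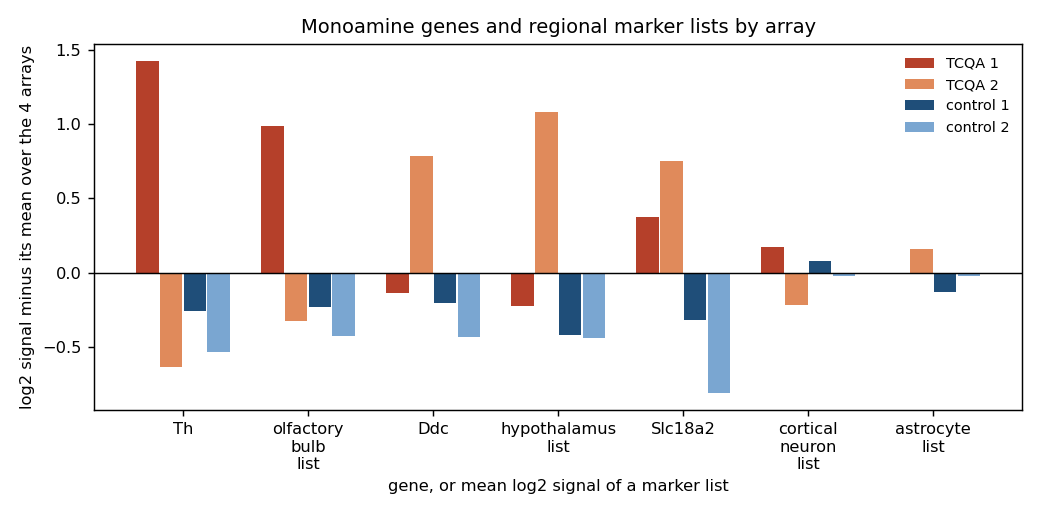
Log2 signal of Th, Ddc and Slc18a2, and mean log2 signal of 4 marker lists, on each array as its distance from the mean of the 4 arrays (bars; colours give the arrays). Th and the olfactory bulb list are highest on TCQA replicate 1 (9.42 and 8.13), Ddc and the hypothalamus list on TCQA replicate 2 (7.38 and 6.88), and Slc18a2 is above its mean on both TCQA arrays; these pairs were set side by side after their values were seen.

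Slc18a2 encodes the vesicular monoamine transporter of neurons, through which dopamine, noradrenaline, serotonin and histamine enter synaptic vesicles. Its log2 signals were 7.36 and 7.73 on TCQA replicates 1 and 2, and 6.66 and 6.17 on control replicates 1 and 2. Both TCQA arrays were high and exceeded their negative control medians, while both control arrays were below theirs. The mean was 7.54 ± 0.27 with TCQA against 6.41 ± 0.35 in control (SD, n = 2 each). The difference was 1.13 (95% confidence interval 0.54 to 1.72, limma unadjusted p = 0.00327, adjusted p = 0.787), the 71st smallest p of the 22206. With the control level this dim, the size of the fold change is less certain than its direction on these arrays.

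Leaving out each array in turn gave Slc18a2 differences of 0.88 to 1.38. Without empirical Bayes moderation, which borrows the spread of other genes, the unadjusted p was 0.0678. Unlike Th and Ddc, the Slc18a2 difference did not rest on 1 TCQA array: it was 1.32 without TCQA replicate 1 and 0.94 without TCQA replicate 2.

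Mast cells and platelets also store amines through Slc18a2, and their markers were dim. Of 7 mast cell markers 6 were under the negative control median on all 4 arrays. Kit, which neurons also transcribe, was above it. The list's mean log2 signal was 5.33 and 5.38 with TCQA and 5.47 and 5.23 in control. Of 5 platelet markers 4 were under the median on all arrays, all but Itga2b, with list means of 5.70 and 5.79 with TCQA, against 5.72 and 5.82 in control. Neither list's mean separated the groups. Both TCQA arrays were above control for 2 of the 7 mast cell markers and below for 1, against 18.9% and 17.8% of all gene probe sets. The 2 were the proteases Cpa3, at 5.64 and 5.70 against 5.52 and 4.84, and Tpsb2, with limma unadjusted p of 0.106 and 0.224. The proteases Mcpt4 and Cma1 were lower in mean with TCQA, as were 5 of the 7 markers in all. The part of these cells in the Slc18a2 difference was not tested.

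The plasma membrane transporters that clear amines after release were read next, and like Dbh they were under the negative control median on every array. Slc6a2, the noradrenaline transporter, had log2 signals of 4.42 and 4.33 with TCQA, against 4.2 and 4.45 in control. Slc6a3, the dopamine transporter, was at 5.24 and 5.14 with TCQA, against 4.83 and 5.12 in control. Slc6a4, the serotonin transporter, was at 5.05 and 5.61 with TCQA, against 5.23 and 5.41 in control. The groups overlapped for Slc6a2 and Slc6a4, and for Slc6a3 the lower TCQA array exceeded the higher control array by a margin smaller than the spread of either group. The differences were 0.05 for Slc6a2 (95% confidence interval -0.40 to 0.51), 0.21 for Slc6a3 (-0.25 to 0.68) and 0.01 for Slc6a4 (-0.57 to 0.59), with limma unadjusted p of 0.778, 0.304 and 0.964. Each interval includes 0 and values on both sides of it. With 2 arrays a group these differences could not be told from 0, and their direction is not settled.

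Markers of the amine neurons were read as well, and most of those of dopamine and noradrenaline neurons were dim. Of 8 dopamine neuron markers 6 were under the negative control median on all 4 arrays, among them Pitx3 at 3.05 to 3.47. Nr4a2, which cortical neurons also transcribe, was above it at 10.86 to 12.39. Its log2 signals of 11.63 and 10.86 with TCQA, against 12.39 and 11.47 in control overlapped, and TCQA replicate 1, where Th was high, held the second highest of the 4. Of 3 measured serotonin neuron markers, Gata2 was under the median on all arrays, and Lmx1b was at 7.16 to 7.57. The third, Htr1a, was above the median on all 4, at 7.48 to 8.10. Of 4 measured noradrenaline neuron markers 3 were under the median on all arrays, Phox2a among them at 5.84 to 6.05. No marker of the 3 lists had a limma unadjusted p under 0.05.

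Maoa and Maob lie next to each other on the X chromosome and encode the oxidases that degrade the amines. Maoa prefers serotonin and noradrenaline. Its log2 signals were 9.80 and 9.99 with TCQA and 9.41 and 9.82 in control. Control replicate 2 was between the TCQA arrays, so the groups overlapped, and the difference was 0.28 (95% confidence interval -0.24 to 0.79, limma unadjusted p = 0.239, adjusted p = 0.855). It was 0.07 without control replicate 1, the lowest array, and 0.48 without control replicate 2.

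Maob, which prefers phenylethylamine and in the mouse brain lies largely in astrocytes, had log2 signals of 9.25 and 9.46 with TCQA, against 8.94 and 8.70 in control. Both TCQA arrays were above both control arrays, and all 4 were well over the negative control median. The mean was 9.35 ± 0.15 with TCQA against 8.82 ± 0.17 in control (SD, n = 2 each). The difference was 0.53 (95% confidence interval 0.06 to 1.00, limma unadjusted p = 0.0317, adjusted p = 0.787), under the 2-fold of the depositors' criterion. Its direction held without each array in turn, with differences of 0.41 to 0.65. The unadjusted p was 0.136 without TCQA replicate 2 and 0.154 without control replicate 2. With no moderation it was 0.0810.

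Astrocyte markers were read beside Maob. The mean log2 signal of the 8 markers was 11.91 and 12.07 with TCQA and 11.79 and 11.89 in control. Both TCQA arrays were above both control arrays for 4 of the 8 (Gfap, Aqp4, Slc1a3 and Sox9) and below for S100b, against 18.9% and 17.8% of all gene probe sets. None of the 8 had a limma unadjusted p under 0.05, and the largest difference was 0.44, for the glial transcription factor Sox9. Endothelial markers had both TCQA arrays above control for 4 of 6 and below for the other 2, against the same shares of all gene probe sets. At a limma unadjusted p under 0.05, 2 were higher: the glucose transporter gene Slc2a1, with a difference of 0.57 (limma unadjusted p = 0.0244), and the organic anion transporter gene Slco1a4, with 0.47 (limma unadjusted p = 0.0370). The part of astrocytes and vessels in the Maob difference was not tested.

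**Figure D3:**
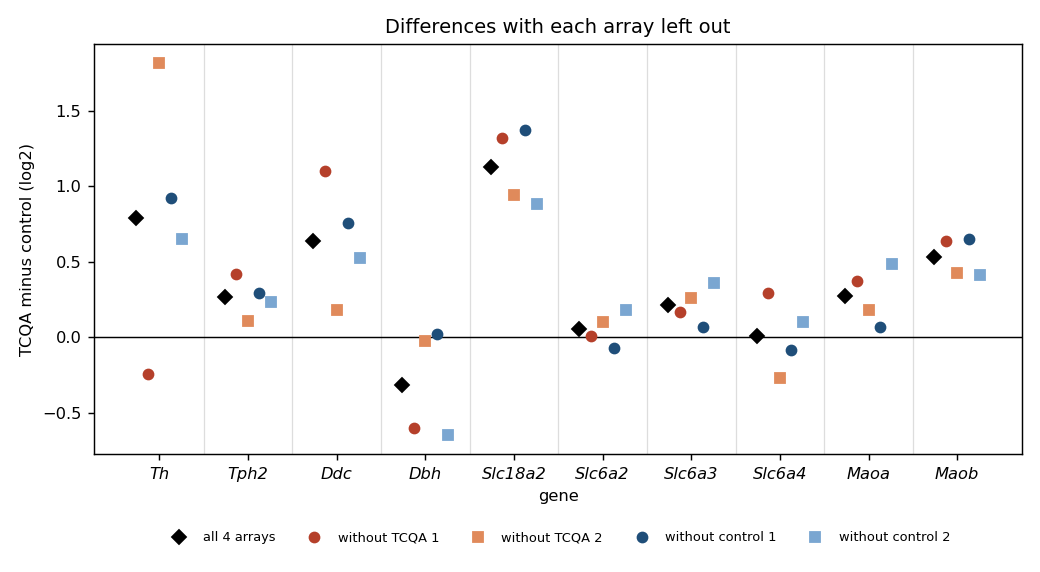
TCQA minus control (log2) for the 10 genes with all 4 arrays (black diamonds) and with each array left out (coloured symbols). Slc18a2 stays between 0.88 and 1.38 and Maob between 0.41 and 0.65, while Th ranges from -0.24 to 1.82 and Ddc from 0.18 to 1.10.

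Other genes of amine metabolism were read from 4 lists of 23 genes, of which 18 were measured. The mean was higher with TCQA for 14 of the 18, and the median difference was 0.17. At a limma unadjusted p under 0.05, 3 were higher and 0 lower, against 3.38% and 2.86% of all gene probe sets. Of the 18, 0 met the depositors' criterion and 0 passed the adjusted threshold by limma. Both TCQA arrays were above both control arrays for 7 of the 18 and below for 1, against 18.9% and 17.8% of all gene probe sets. Of the 18, 7 were under the negative control median on all 4 arrays, as were 10642 of the 22206 gene probe sets. The other 5 were not analysed here.

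Tetrahydrobiopterin is the cofactor that Th and Tph2 need, and its first enzyme is Gch1. Gch1 was at log2 signals of 6.37 and 6.28 with TCQA, against 5.26 and 5.83 in control, all under the negative control median. The groups did not overlap, and control replicate 1 was the lowest. The difference was 0.78 (SE 0.24, limma unadjusted p = 0.0156, adjusted p = 0.787), and 0.49 without control replicate 1 (limma unadjusted p = 0.0889). Pcbd1, which helps to recycle the cofactor, was at 7.32 and 8.31 with TCQA, against 6.84 and 7.17 in control. Like Ddc it was highest on TCQA replicate 2: its difference of 0.81 (SE 0.34, limma unadjusted p = 0.0535) was 1.30 without TCQA replicate 1 and 0.32 without TCQA replicate 2. Qdpr, the reductase that regenerates the cofactor, was the one gene of the 18 with both TCQA arrays below control, at 11.77 and 11.76 against 12.03 and 12.02, a difference of -0.26 (SE 0.17, limma unadjusted p = 0.176). The median over the 7 measured cofactor genes was 0.14, with 5 higher and 2 lower in mean and 1 at an unadjusted p under 0.05.

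Among the other breakdown genes, Hnmt, which methylates histamine, was at log2 signals of 12.24 and 12.15 with TCQA, against 11.54 and 11.67 in control. The arrays of each group were close to each other and the groups did not overlap, a difference of 0.59 (SE 0.18, limma unadjusted p = 0.0146, adjusted p = 0.787). The unadjusted p was 0.0603 without TCQA replicate 1 and 0.0735 without control replicate 1, with differences of 0.54 and 0.53. Aldh2, the mitochondrial dehydrogenase that oxidises the aldehydes made by the monoamine oxidases, differed by 0.35 (SE 0.21). Sult1a1, a sulphotransferase of phenols, was at 7.84 on TCQA replicate 2 and between 6.48 and 6.80 on the other arrays. Of the 5 measured breakdown genes 4 were higher in mean, with a median of 0.35, and 1 had an unadjusted p under 0.05.

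Slc22a2, an organic cation transporter that takes up amines at low affinity, was at log2 signals of 6.07 and 5.38 with TCQA, against 5.01 and 4.67 in control, all under the negative control median. The groups did not overlap, with a difference of 0.89 (SE 0.28, limma unadjusted p = 0.0174, adjusted p = 0.787). It was 0.54 without TCQA replicate 1 (limma unadjusted p = 0.0760) and 0.72 without control replicate 2 (limma unadjusted p = 0.0792). Slc29a4, the plasma membrane monoamine transporter, overlapped between the groups, with a difference of 0.13 (SE 0.25). The remaining synthesis and vesicle genes Tph1, Pnmt, Hdc and Slc18a1 were under the negative control median on all 4 arrays, with differences of -0.04 to 0.30.

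**Figure D4:**
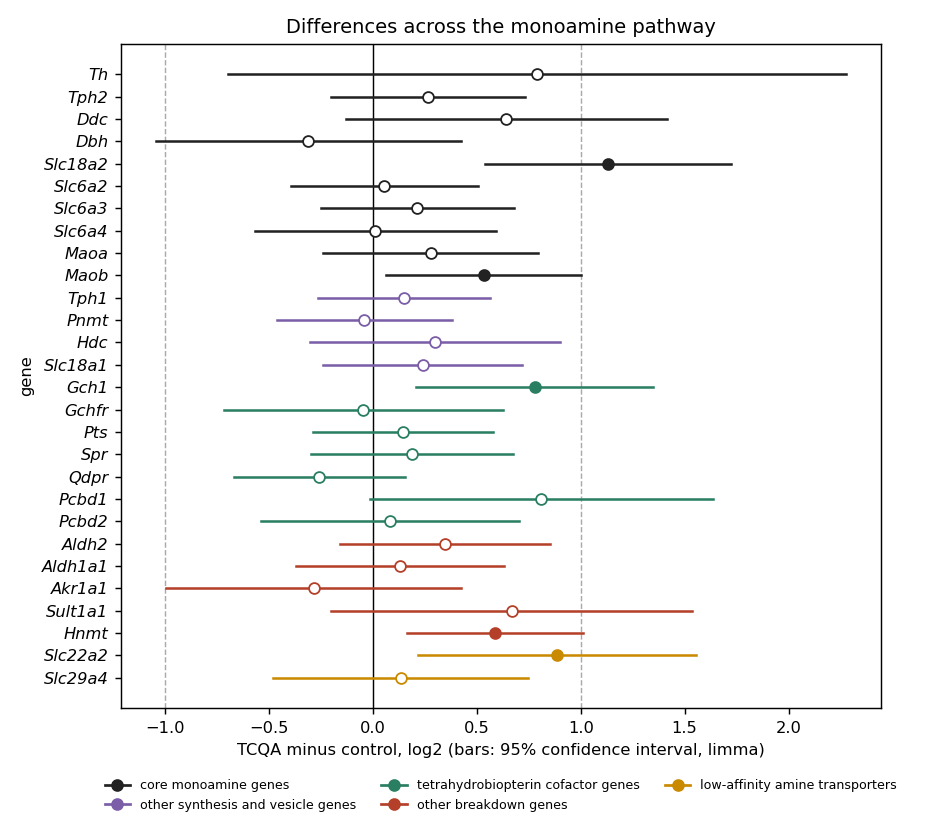
TCQA minus control (log2) with 95% confidence intervals from limma for the 10 core genes (black) and the 18 other measured genes of amine metabolism (coloured by list). Filled circles have an unadjusted p under 0.05 (Slc18a2, Maob, Gch1, Hnmt and Slc22a2), open circles do not, and dashed lines mark a 2-fold change.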

How the data were processed

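Brain cortex RNA of 2 TCQA and 2 control samples was measured on Clariom S mouse arrays. The authors deposited 1 log2 signal per probe set and array, made with SST-RMA in the Transcriptome Analysis Console 4.0.2, per the labels' design text. This summarizes the probes of a set and brings the arrays to a common distribution, so a shift shared by most genes would not be seen. The build of the annotation: not given in the sources used here. The 6640 control probe sets (5222 negative, 1324 positive) stayed out of the tests and served to mark dim signals, in place of depth. The number of arrays limits the precision.

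Groups came from the sample titles. All 22206 gene probe sets were fitted with limma 3.58.1 in R 4.3.3 (lmFit, eBayes, two-sided, TCQA minus control, Benjamini-Hochberg over all), on 2 residual and 4.23 prior degrees of freedom. The procedure was tested on simulated data. Probe sets were named through the platform annotation, which named 19572; for several probe sets of a gene the brightest was read. The genes and lists were chosen with earlier results of these data known. All 10 genes and any measured gene of the 4 pathway lists could be named, and of the marker lists those with the smallest p and the defining markers. Other markers named beside them, such as those high on 1 array, were chosen after their values were seen. Thalamic, striatal, choroid plexus and meningeal lists were computed too. Same-numbered arrays deviated together with a correlation of 0.05, so the numbers were not taken as pairs. Alternatives were a filter on dim probe sets, quantile and median scaling, no moderation, a trended robust prior, array weights, a replicate block and leaving out each array.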

Additional observations from a re-analysis of the deposited data

How the results depend on the processing

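With 2 arrays a group, and 7 of the 10 genes near or under the negative controls, these values rest on few measurements. The depositors' criterion was met by 83 gene probe sets, by 25 without moderation, by 36 with only probe sets at or above the median signal, and by 160 to 291 without 1 array. The adjusted threshold was passed by 0 to 4 without 1 array; the 4 arose without TCQA replicate 1 and were Pmch, Gabrq, Gh and an unnamed probe set. Of the 10 monoamine genes, 2 had an unadjusted p under 0.05, 0 without moderation, 1 (Maob) in the filter on dim probe sets, which kept 3 of them, and 1 to 3 without 1 array; without TCQA replicate 1 Ddc joined, without TCQA replicate 2 Th replaced Maob, and without control replicate 2 Slc18a2 alone remained. Of the wider pathway 3 genes had one, and 1 to 5 without 1 array (1 without control replicate 1, 5 without TCQA replicate 1). With the replicate number as a block it was 5, and the block changed no call of the 10. Without moderation the wider pathway had 2, Hnmt (higher, unadjusted p = 0.0162) and Qdpr (lower, unadjusted p = 0.000843). In that fit the unadjusted p was 0.115 for Gch1 and 0.147 for Slc22a2. Differences that changed sign without an array ranged from -0.24 to 1.82 for Th, -0.65 to 0.024 for Dbh, -0.071 to 0.18 for Slc6a2 and -0.27 to 0.29 for Slc6a4, which was also -0.0054 after quantile normalization. No other scaling changed a sign or call of the 10. Where 1 array is left out, the lone array of its group is assumed to vary like the others. The causes were not tested.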

Other observations

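Other regional and cell type lists were read on the same arrays, as values. Markers of the thalamus, which sends axons to the cortex, were higher in mean with TCQA for 6 of 7, with a median log2 difference of 0.67. At a limma unadjusted p under 0.05, 2 were higher, Zic1 and Calb2, and Calb2 was also in the olfactory bulb list. Of all gene probe sets 51.1% were higher in mean and 3.38% were called higher. The mean log2 signal of the list was 10.06 and 10.60 with TCQA and 9.15 and 9.85 in control, with control replicate 1 the lowest array. Of the 7, 5 were highest on TCQA replicate 2. Without that array the difference went from 0.67 to -0.25 for Tcf7l2 and from 0.88 to 0.21 for Slc17a6. It stayed at 1.61 for Zic1 and 1.69 for Calb2. Meningeal fibroblast markers were higher in mean for 7 of 7, with a median of 0.39 and 3 at a limma unadjusted p under 0.05, all higher, beside the same shares of all gene probe sets. Their list means were 7.93 and 7.99 with TCQA and 7.12 and 7.71 in control, and again control replicate 1 was the lowest. Choroid plexus markers had list means of 8.0 and 8.81 with TCQA, against 6.60 and 9.34 in control, and 0 of the 6 had a limma unadjusted p under 0.05. Striatal markers, whose neurons receive the densest dopamine input of the forebrain, had a median of -0.06, with 1 of the 4 measured higher in mean and 0 at a limma unadjusted p under 0.05. The dopamine receptor genes Drd1 and Drd2 differed by 0.01 and -0.07.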
